A study of Mus musculus with 6 samples.

Results

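The 10 genes of the tumor necrosis factor (TNF) system described here, measured in mouse B16-F10 melanomas, are the ligand genes *Tnf*, *Lta*, *Ltb* and *Tnfsf10*, the receptor genes *Ltbr*, *Tnfrsf1a*, *Tnfrsf1b* and *Fas*, and the feedback genes *Nfkbia* and *Tnfaip3*. They were taken by symbol from the gene expression table, and all 10 were found among its 21358 entries. Both groups consisted of C57BL/6 mice that carried subcutaneous tumors of B16-F10, a single transplantable melanoma line, and had been lymphodepleted by total body irradiation. All mice were treated by adoptive cell transfer (ACT) with pmel-1 T cells, which are splenocytes of a transgenic donor whose CD8 T cells recognise the melanocyte antigen gp100, activated with gp100 peptide in culture. The ACT + IL-2 group was given interleukin-2 on consecutive days of each cycle. The ACT + NKTR-214 group was given NKTR-214, IL-2 that carries releasable polyethylene glycol chains and favours the IL-2Rβγ form of the receptor, once per cycle. Whole tumors were taken at day 12 from 3 mice per group, the hosts and the T cell donors were young females, and tumors without T cell transfer or without a cytokine were not analysed here.

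TNF and lymphotoxin-α act as trimers on the receptors TNFR1 and TNFR2, while lymphotoxin-α joined to membrane-bound lymphotoxin-β acts on the lymphotoxin-β receptor of stromal and myeloid cells. TRAIL and Fas ligand are the death ligands of the family, and their receptors can start caspase-8 cleavage. TNFR1 and TNFR2 also switch on the transcription factor NF-κB, which in turn induces its own inhibitors, IκBα (*Nfkbia*) and A20 (*Tnfaip3*), and in tumors these ligands come mainly from T cells, natural killer (NK) cells and myeloid cells.

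*Ltb*, *Tnf* and *Lta* are neighbours within 10.9 kb of chromosome 17 (35194439 to 35205351, GRCm38, GENCODE vM21), in the major histocompatibility complex, and *Ltbr* and *Tnfrsf1a* lie within 55.9 kb of each other on chromosome 6 (125306571 to 125362484). The remaining members are on chromosomes 3 (*Tnfsf10*), 4 (*Tnfrsf1b*), 10 (*Tnfaip3*), 12 (*Nfkbia*) and 19 (*Fas*). No member shared exon bases with another gene. The RefSeq promoter table (GRCm38.p6) held 11 promoters for the 10 genes, 2 of them for *Tnfaip3*, and the 250 bases before each start were searched for the NF-κB decamer on both strands and for TATAAA on the gene strand. The NF-κB decamer was found before 3 members, *Ltb*, *Nfkbia* and *Tnfaip3*, against 7.25% of all 32851 promoters, and TATAAA before *Tnf*, *Lta* and *Tnfaip3*, against 7.59%. These 5 promoters are shown because they hold the matches, which stand in capitals and are read 5′ to 3′ on the strand of the gene.
*Ltb*, chr17:35194257-35194506, plus strand: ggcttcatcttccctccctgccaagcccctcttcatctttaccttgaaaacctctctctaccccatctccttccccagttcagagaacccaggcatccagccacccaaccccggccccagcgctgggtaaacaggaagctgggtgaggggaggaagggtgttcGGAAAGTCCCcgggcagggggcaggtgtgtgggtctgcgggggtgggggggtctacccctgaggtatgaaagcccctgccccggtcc
*Nfkbia*, chr12:55492648-55492897, minus strand: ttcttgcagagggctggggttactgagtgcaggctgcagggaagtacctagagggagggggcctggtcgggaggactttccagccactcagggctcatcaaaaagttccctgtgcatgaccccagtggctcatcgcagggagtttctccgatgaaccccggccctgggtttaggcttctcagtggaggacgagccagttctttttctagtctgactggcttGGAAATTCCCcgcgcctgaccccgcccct
*Tnfaip3*, chr10:19015411-19015660, minus strand: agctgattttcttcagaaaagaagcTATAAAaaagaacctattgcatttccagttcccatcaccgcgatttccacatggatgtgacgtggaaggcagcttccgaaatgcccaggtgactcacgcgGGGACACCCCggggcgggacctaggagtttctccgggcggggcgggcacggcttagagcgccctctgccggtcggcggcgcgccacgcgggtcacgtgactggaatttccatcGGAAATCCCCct
*Tnf*, chr17:35202008-35202257, minus strand: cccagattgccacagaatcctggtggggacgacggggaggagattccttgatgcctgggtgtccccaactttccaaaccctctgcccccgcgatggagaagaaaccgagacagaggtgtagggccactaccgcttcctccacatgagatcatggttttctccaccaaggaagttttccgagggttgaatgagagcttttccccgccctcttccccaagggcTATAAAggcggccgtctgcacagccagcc
*Lta*, chr17:35205352-35205601, minus strand: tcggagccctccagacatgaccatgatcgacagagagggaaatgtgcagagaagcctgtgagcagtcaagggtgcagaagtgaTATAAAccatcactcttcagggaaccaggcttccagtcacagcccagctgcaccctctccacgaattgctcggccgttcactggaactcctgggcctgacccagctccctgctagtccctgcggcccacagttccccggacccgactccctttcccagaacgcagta
In *Ltb* the decamer lay 87 to 78 bases before the start, and in *Nfkbia* 29 to 20 bases before it. *Tnfaip3* held 1 match 125 to 116 bases before the start, which was read on both strands, and 1 match 12 to 3 bases before it. The other *Tnfaip3* promoter held neither motif. TATAAA lay 29 to 24 bases before the start of *Tnf*, 167 to 162 bases before that of *Lta* and 225 to 220 bases before that of *Tnfaip3*. A match is a run of letters and not a measured binding site, and where none was found these letters are not in this window.

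Expression was measured by RNA-seq as FPKM, a read number divided by exon length and library size. The low FPKM values were whole multiples of the value of 1 read, which gave an estimated 20900000 to 24700000 reads per library and between 7 reads (*Lta* in 2 ACT + IL-2 tumors) and 5411 reads (*Tnfrsf1b* in ACT + NKTR-214 replicate 2) behind a member's value. ACT + IL-2 replicate 1 held the highest value of its group for 10 of the 10 members, and ACT + NKTR-214 replicate 3 the lowest of its group for 8 of 10. ACT + IL-2 replicate 2 had the lowest sum of FPKM over all genes, 176419.8 against up to 246513.7 elsewhere. Genes were compared with limma on log2(FPKM + 1), with Benjamini-Hochberg adjustment over 14172 tested genes, and log2 fold changes are on this scale and given as ACT + NKTR-214 minus ACT + IL-2. Melanoma markers were abundant in every tumor, at a summed 5410 to 6930 FPKM in the ACT + IL-2 tumors and 2660 to 3760 FPKM in ACT + NKTR-214.

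Of the 10 members, 8 (*Tnf*, *Lta*, *Ltb*, *Tnfsf10*, *Tnfrsf1b*, *Fas*, *Nfkbia* and *Tnfaip3*) were higher in ACT + NKTR-214 tumors at an adjusted p under 0.05, and 0 were lower. Over all tested genes 20.7% were called higher and 8.28% lower. Of all calls 71.5% were thus higher (2940 higher, 1173 lower). After scaling to a common 75th percentile this share was 46.2% (3239 higher, 3774 lower) and after quantile normalization 37.3% (2691 higher, 4525 lower), mainly through more calls in the lower direction, and 8 members were called higher under either scaling. Without moderation of the variance 1 member, *Lta*, was called higher, and the adjusted p of the 7 members that lost the call ran from 0.0618 to 0.132 (101 genes called higher in all). The values of the groups did not overlap for 9 of the 10 members, each with ACT + NKTR-214 above ACT + IL-2, against 27.1% of all tested genes (15.3% in the opposite direction). The median log2 fold change was 1.49 over the members and 0.045 over all tested genes. The called members spanned 0.77 for *Tnf* to 2.73 for *Ltb*, and *Ltbr* and *Tnfrsf1a* did not pass the test.

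**Figure D1:**
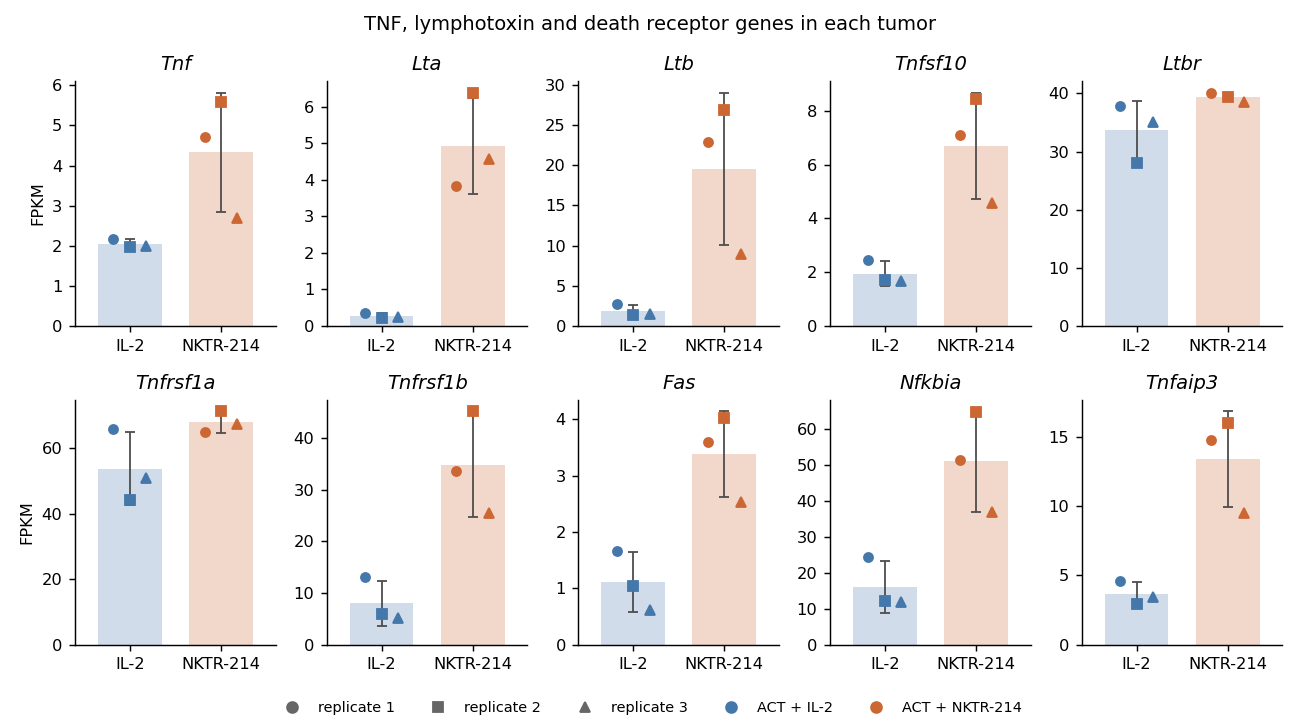
FPKM of the 10 members in each tumor, with bars for the group mean, error bars for the SD (n = 3 tumors per group) and marker shapes for the replicate number; each y axis starts at 0 and has its own range. The groups are apart for 9 members and overlap for *Tnfrsf1a*, and replicate 1 is the highest ACT + IL-2 point in every panel.

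In whole tumors fewer cells of a type and less RNA per cell cannot be told apart, and markers of several cell types moved with the members. The 6 T cell markers were all called higher, at a summed 9.21 to 22.5 FPKM in the ACT + IL-2 tumors and 119 to 261 FPKM in ACT + NKTR-214. The 6 macrophage and monocyte markers were also all called higher, at 75.1 to 182 FPKM against 304 to 472 FPKM. Of the other lists, 4 of 4 tested neutrophil, 4 of 5 dendritic cell, 5 of 5 fibroblast, 2 of 4 NK cell and 1 of 4 endothelial markers were called higher. Over all tested genes 20.7% were called higher, and the endothelial 1 of 4 is near that share. B cell markers were near 0, at a summed 0.89 to 2.01 FPKM against 0.96 to 1.54 FPKM, with 0 of 2 tested called and others, among them *Ms4a1* and *Pax5*, too low to test. Of the 7 melanoma markers 5 were called lower, beside 8.28% of all tested genes. The part of these cell types in the results on the members was not tested.

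Among the ligands, the lymphotoxin genes differed most. *Lta*, which encodes lymphotoxin-α, stood at 0.364, 0.221 and 0.242 FPKM in replicates 1, 2 and 3 of ACT + IL-2 and at 3.84, 6.38 and 4.57 FPKM in the ACT + NKTR-214 replicates in the same order. Means of 0.276 ± 0.077 and 4.93 ± 1.31 FPKM (SD, n = 3 each) gave a ratio of 17.9, and the gene rose with a log2 fold change of 2.20 (SE 0.16, adjusted p = 1.03e-07, limma). Every ACT + NKTR-214 tumor was far above every ACT + IL-2 tumor. In reads, *Lta* had 12, 7 and 7 in the ACT + IL-2 libraries, so that the 95% Poisson interval of the lowest ran from 2.81 to 14.42 reads, and 131, 215 and 150 in the ACT + NKTR-214 libraries. An offset of 1 compresses a gene as low as this one, and with an offset of 0.1 FPKM the log2 fold change was 3.73.

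*Ltb*, which encodes the membrane anchor lymphotoxin-β, was measured at 2.79, 1.36 and 1.53 FPKM in the ACT + IL-2 tumors and at 22.9, 26.9 and 8.92 FPKM in ACT + NKTR-214. It rose 10.3-fold between the means, from 1.89 ± 0.786 to 19.6 ± 9.43 FPKM (SD, n = 3 each), with a log2 fold change of 2.73 (SE 0.30, adjusted p = 5.34e-06, limma). The groups were apart, although ACT + NKTR-214 replicate 3 was well below the other two tumors of its group. With an offset of 1 the log2 fold change of *Ltb* was the largest of the 10 members, but with an offset of 0.1 *Lta* (3.73) exceeded *Ltb* (3.22), as it did in the ratio of means. The value of *Ltb* with an offset of 1 ranged from 2.45 to 3.19 when single tumors were left out.

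*Tnf* itself showed the smallest change of the called members. It stood at 2.18, 1.96 and 2.0 FPKM in the ACT + IL-2 tumors and at 4.71, 5.59 and 2.7 FPKM in ACT + NKTR-214. The mean rose 2.12-fold, from 2.05 ± 0.12 to 4.33 ± 1.48 FPKM (SD, n = 3 each), with a log2 fold change of 0.77 (SE 0.19, adjusted p = 0.00605, limma). The ACT + IL-2 tumors lay close together and the groups did not overlap, but ACT + NKTR-214 replicate 3 was only a little above them. Its 106 reads had a 95% Poisson interval of 86.78 to 128.2, which overlapped those of all 3 ACT + IL-2 tumors, whose upper ends were 106.21, 92.9 and 87.32 reads in replicates 1, 2 and 3. Without ACT + IL-2 replicate 2 the call was lost (log2 fold change 0.75, adjusted p = 0.0633), and over 14 alternative settings the adjusted p of limma for *Tnf* ranged from 1.14e-06 to 0.132.

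*Tnfsf10*, the gene of the death ligand TRAIL, was at 2.47, 1.72 and 1.66 FPKM in the ACT + IL-2 tumors and at 7.08, 8.45 and 4.57 FPKM in ACT + NKTR-214. Its mean rose 3.44-fold, from 1.95 ± 0.454 to 6.7 ± 1.97 FPKM (SD, n = 3 each), with a log2 fold change of 1.36 (SE 0.19, adjusted p = 6.87e-05, limma). The lowest ACT + NKTR-214 tumor was above the highest ACT + IL-2 tumor, with 535 reads against 291.

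**Figure D2:**
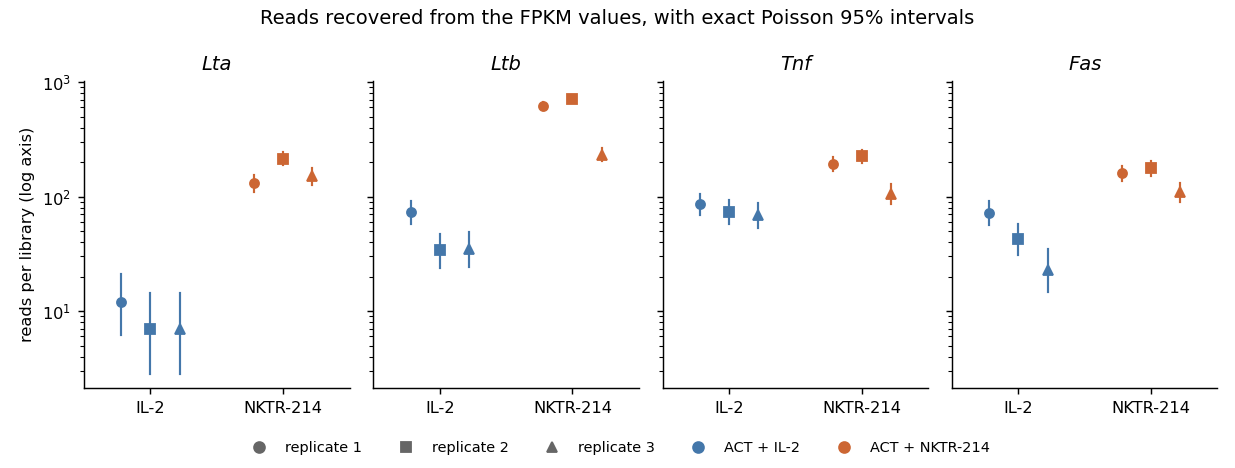
Reads per library (log axis) for the low members *Lta*, *Ltb*, *Tnf* and *Fas*, recovered from the FPKM values, with exact Poisson 95% intervals that cover counting error only. The intervals of the groups are apart for *Lta* and *Ltb*, whereas the interval of *Tnf* in ACT + NKTR-214 replicate 3 (106 reads) meets those of all 3 ACT + IL-2 tumors (86, 74 and 69 reads), and for *Fas* the intervals of ACT + NKTR-214 replicate 3 (109 reads) and ACT + IL-2 replicate 1 (72 reads) meet.

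The receptors split into a pair that rose and a pair that did not pass the test. *Tnfrsf1b*, which encodes TNFR2, a receptor found mainly on leukocytes and endothelium, was at 13.0, 5.97 and 5.08 FPKM in the ACT + IL-2 tumors and at 33.6, 45.2 and 25.4 FPKM in ACT + NKTR-214. Its mean rose 4.33-fold, from 8.03 ± 4.35 to 34.8 ± 9.94 FPKM (SD, n = 3 each), with a log2 fold change of 2.05 (SE 0.26, adjusted p = 2.39e-05, limma). ACT + IL-2 replicate 1 stood above the other two tumors of its group and still below every ACT + NKTR-214 tumor. *Fas*, the receptor of Fas ligand, was low throughout, at 1.67, 1.04 and 0.609 FPKM in the ACT + IL-2 tumors and 3.59, 4.02 and 2.54 FPKM in ACT + NKTR-214. It rose 3.06-fold between the means, from 1.11 ± 0.534 to 3.38 ± 0.761 FPKM (SD, n = 3 each), with a log2 fold change of 1.07 (SE 0.18, adjusted p = 0.000371, limma). Its reads ran from 23 to 72 in ACT + IL-2 and from 109 to 177 in ACT + NKTR-214, and the counts did not overlap. The 95% Poisson intervals of the nearest tumors did, at 56.34 to 90.67 reads in ACT + IL-2 replicate 1 and 89.5 to 131.49 reads in ACT + NKTR-214 replicate 3.

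*Tnfrsf1a*, which encodes TNFR1, the widely expressed receptor with a death domain, was the most abundant member, at 66.1, 44.3 and 50.9 FPKM in the ACT + IL-2 tumors and 64.9, 71.4 and 67.6 FPKM in ACT + NKTR-214. The groups overlapped, since ACT + IL-2 replicate 1 lay above ACT + NKTR-214 replicate 1. The means were 53.8 ± 11.2 and 68.0 ± 3.27 FPKM (SD, n = 3 each), a ratio of 1.26, and the log2 fold change of 0.35 (SE 0.17) did not pass the test (adjusted p = 0.132, limma). Without ACT + IL-2 replicate 1 it did, at 0.51 (adjusted p = 0.0277), within a range of 0.0277 to 0.337 over 14 alternatives.

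*Ltbr*, the gene of the lymphotoxin-β receptor, was at 37.9, 28.0 and 35.0 FPKM in the ACT + IL-2 tumors and at 40.1, 39.4 and 38.6 FPKM in ACT + NKTR-214. The ACT + NKTR-214 values were all higher, by a small margin over ACT + IL-2 replicate 1. The 95% Poisson read interval of that tumor, 1809.65 to 1981.26, met that of ACT + NKTR-214 replicate 3, 1835.07 to 2007.85. The means of 33.6 ± 5.07 and 39.4 ± 0.785 FPKM (SD, n = 3 each) differed by a log2 fold change of 0.23 (95% interval -0.09 to 0.55, adjusted p = 0.276, limma). A difference of up to 0.55 on this scale is therefore within the interval, and without ACT + IL-2 replicate 2 the log2 fold change was 0.11, within a leave-one-out range of 0.11 to 0.32.

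Both feedback genes rose. *Nfkbia*, which encodes IκBα, the inhibitor that holds NF-κB in the cytoplasm, was at 24.2, 12.1 and 11.7 FPKM in the ACT + IL-2 tumors and at 51.3, 64.7 and 36.8 FPKM in ACT + NKTR-214. Its mean rose 3.19-fold, from 16 ± 7.09 to 50.9 ± 13.9 FPKM (SD, n = 3 each), with a log2 fold change of 1.65 (SE 0.24, adjusted p = 8.97e-05, limma). *Tnfaip3*, the gene of the ubiquitin-editing enzyme A20, was at 4.58, 2.93 and 3.47 FPKM in the ACT + IL-2 tumors and at 14.8, 16 and 9.51 FPKM in ACT + NKTR-214. It rose 3.67-fold between the means, from 3.66 ± 0.843 to 13.4 ± 3.46 FPKM (SD, n = 3 each), with a log2 fold change of 1.62 (SE 0.19, adjusted p = 1.37e-05, limma). For both genes the groups were apart, ACT + IL-2 replicate 1 was the highest of its group and ACT + NKTR-214 replicate 3 the lowest of its own. The *Nfkbia* promoter and 1 of the 2 *Tnfaip3* promoters, shown above with that of *Ltb*, hold the NF-κB decamer within 250 bases of the start. *Tnf*, *Lta*, *Tnfsf10*, *Tnfrsf1b* and *Fas*, also called higher, held none there, and a link to expression was not tested.

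**Figure D3:**
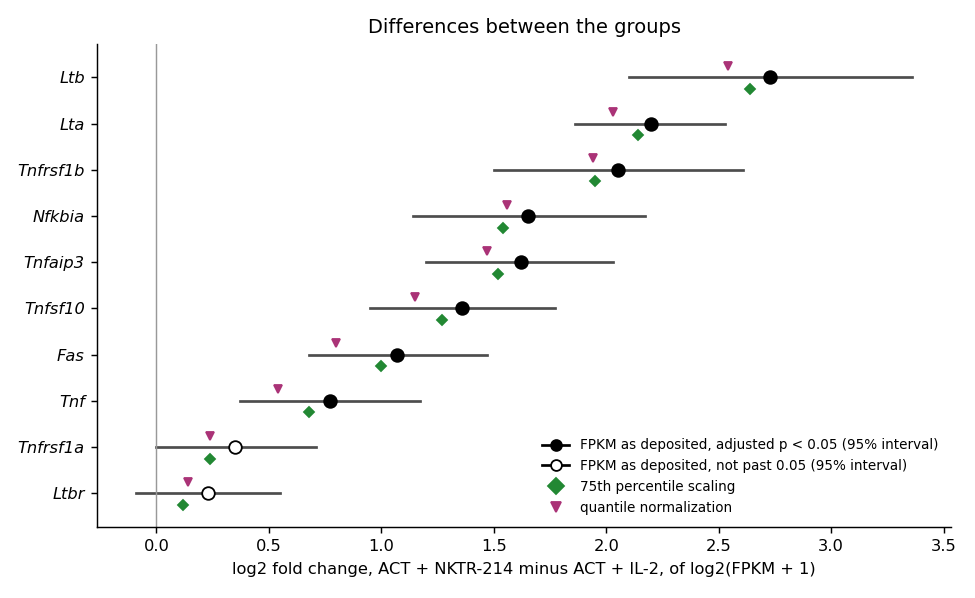
Log2 fold change of each member (x axis, ACT + NKTR-214 minus ACT + IL-2, of log2(FPKM + 1)) with its 95% interval, filled where the adjusted p was under 0.05, beside the values after 75th percentile scaling and quantile normalization. *Ltb* leads at 2.73 with this offset of 1 (with an offset of 0.1 *Lta* leads, 3.73 against 3.22), and *Ltbr* at 0.23 and *Tnfrsf1a* at 0.35 are the open points.

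The order of the members by FPKM, which is a level per exon length, also differed between the groups as a description. In ACT + IL-2 tumors *Tnfrsf1a* and then *Ltbr* were the highest, followed by *Nfkbia* and *Tnfrsf1b*, whose values overlapped, then *Tnfaip3*. The values of *Tnf*, *Tnfsf10*, *Ltb* and *Fas* came next and overlapped from neighbour to neighbour, and *Lta* was the lowest, below all of them. In ACT + NKTR-214 tumors *Tnfrsf1a* was again highest, and *Nfkbia*, *Ltbr*, *Tnfrsf1b*, *Ltb* and *Tnfaip3* followed, each overlapping the next. The lowest 4 were *Tnfsf10*, *Lta*, *Tnf* and *Fas*, which also overlapped from neighbour to neighbour. *Ltb* thus stood at place 8 of 10 in one group and at place 5 in the other, and *Lta* at place 10 and place 8.

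Ratios between members within a tumor do not depend on a single scaling factor per library, and a few were taken after the values were seen, so they are a description. *Lta* had 0.134 ± 0.0289 of the FPKM of *Tnf* in ACT + IL-2 tumors (0.167, 0.113 and 0.121) and 1.22 ± 0.442 in ACT + NKTR-214 tumors (0.815, 1.14 and 1.69). The ratio of *Tnfrsf1b* to *Tnfrsf1a* was 0.144 ± 0.0492 in ACT + IL-2 and 0.509 ± 0.129 in ACT + NKTR-214, that is, TNFR2 relative to TNFR1 transcripts. *Ltb* relative to its receptor gene *Ltbr* was at 0.0553 ± 0.0162 and 0.495 ± 0.235 (SD, n = 3 each). None of these 3 ratios overlapped between the groups. The ratio of *Tnf* to *Tnfrsf1b* went the other way, at 0.296 ± 0.116 and 0.123 ± 0.0169, also without overlap. The ratio of *Tnf* to *Tnfrsf1a* did overlap, at 0.0388 ± 0.0056 and 0.0636 ± 0.0206.

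The members were also set against the T cell receptor complex genes *Cd3d*, *Cd3e* and *Cd3g* in the same tumor, on a log2(FPKM + 0.1) scale. The mean of these 3 genes was 1.28 in ACT + IL-2 and 5.24 in ACT + NKTR-214, a difference of 3.96. *Lta* lay below them by a similar margin in both groups, at -2.71 ± 0.42 in ACT + IL-2 and -2.94 ± 0.60 in ACT + NKTR-214 (SD over 3 tumors), with overlap between the groups (exact two-sided permutation p = 0.7). For low *Lta* this difference of -0.23 depended on the offset and was -1.31 with an offset of 1. Without ACT + NKTR-214 replicate 1 it was 0.06. The other 9 members were lower relative to the *Cd3* genes in ACT + NKTR-214 without overlap, with *Ltb* the nearest at a difference of -0.74, then *Tnfrsf1b* at -1.77, and *Tnf* at -2.97. *Tnfrsf1a* at -3.60 and *Ltbr* at -3.72 were farthest. Since the *Cd3* genes themselves differed by 3.96, any gene that rose less has a lower mean on this scale. The share of all genes without overlap against them was not computed. With 3 tumors per group the exact permutation test cannot go below p = 0.1, which each of these 9 members reached.

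Against the macrophage genes *Csf1r*, *Adgre1* and *Cd68*, whose mean was 4.69 in ACT + IL-2 and 6.22 in ACT + NKTR-214 on the same scale, the members fell into 3 sets. *Lta* (difference 2.20, or 0.70 with an offset of 1), *Ltb* (1.69) and *Tnfrsf1b* (0.66) were higher in ACT + NKTR-214 without overlap. *Tnfrsf1a* (-1.17) and *Ltbr* (-1.29) were lower without overlap. The groups overlapped for *Tnf* (-0.54), *Tnfsf10* (0.18), *Fas* (0.07), *Nfkbia* (0.18) and *Tnfaip3* (0.31). The 5 members without overlap again reached the smallest exact permutation p of 0.1, so that no difference in these ratios could pass 0.05. The macrophage genes rose too, and the share of all genes without overlap against them was not computed. Against *Ptprc*, the gene of the pan-leukocyte antigen CD45, *Lta* (1.27) and *Ltb* (0.77) remained higher and the other 8 members were lower, from -0.27 for *Tnfrsf1b* to -2.22 for *Ltbr*, so that the sign for *Tnfrsf1b*, *Tnfsf10*, *Fas*, *Nfkbia* and *Tnfaip3* differed between *Ptprc* and the macrophage genes. For *Ltb* and *Lta* it differed between the *Cd3* genes and both of these references, but for *Lta* the sign against the *Cd3* genes turned without ACT + NKTR-214 replicate 1. With an offset of 1 the difference from the macrophage genes was -0.13 for *Tnfsf10* and -0.42 for *Fas*. Without ACT + IL-2 replicate 1 this difference was -0.07 for *Tnfsf10* and -0.03 for *Fas*. It was then 0.05 for *Tnfaip3*, 0.09 for *Nfkbia* and 0.64 for *Tnfrsf1b*.

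**Figure D4:**
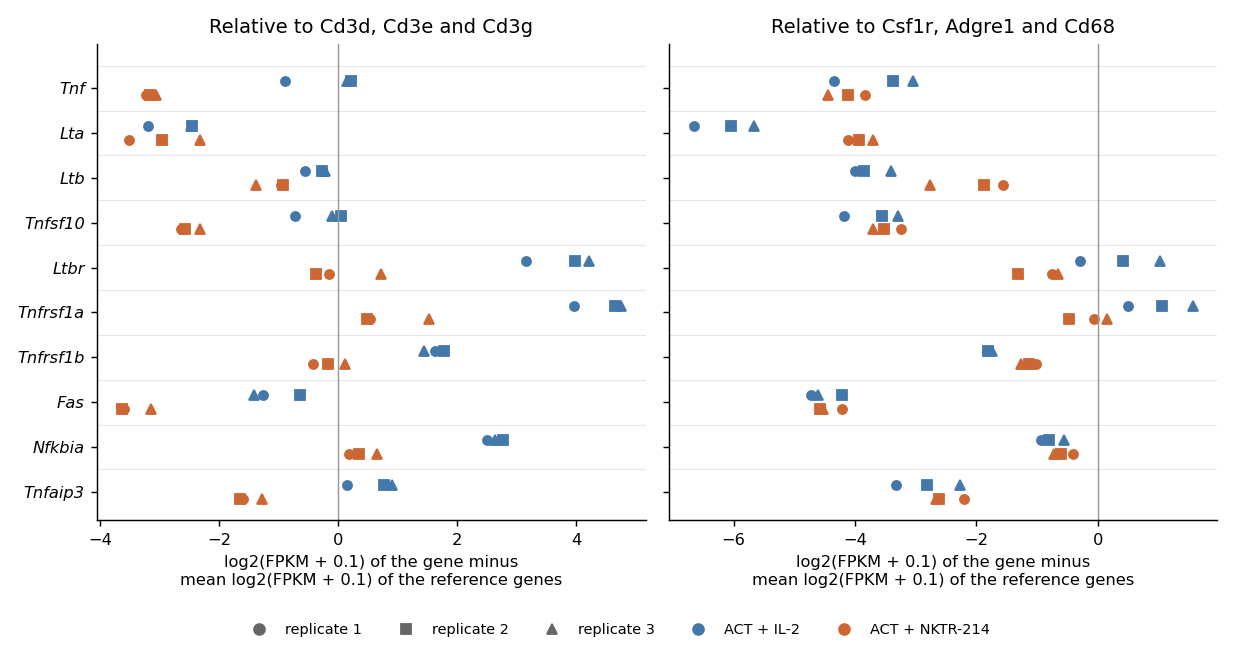
Level of each member in each tumor relative to the mean of *Cd3d*, *Cd3e* and *Cd3g* (left) or of *Csf1r*, *Adgre1* and *Cd68* (right), as differences of log2(FPKM + 0.1). On the left only *Lta* overlaps between the groups, and on the right *Lta*, *Ltb* and *Tnfrsf1b* lie higher in ACT + NKTR-214 while *Tnfrsf1a* and *Ltbr* lie lower.

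The other genes of the pathway were read from 7 lists of 92 genes, of which 87 could be tested. Of these, 46 were called higher in ACT + NKTR-214 and 0 lower, beside 20.7% of all tested genes called higher, with a median log2 fold change of 0.46 against 0.045 over all tested genes. Among 10 partner ligands and receptors 6 rose (median 0.89). *Fasl*, the ligand of *Fas*, stood at 0.369, 0.316 and 0.346 FPKM in the ACT + IL-2 tumors and at 8.85, 10.3 and 4.69 FPKM in ACT + NKTR-214, and rose by 2.67 on the log2 scale (adjusted p = 1.89e-07, limma). The ratio of *Fasl* to *Fas* was 0.365 ± 0.182 and 2.29 ± 0.388 (SD, n = 3 each), without overlap. *Tnfsf14*, which encodes LIGHT, the other ligand of the lymphotoxin-β receptor, rose by 1.59 (adjusted p = 6.12e-07, limma). *Tnfrsf10b*, the mouse TRAIL receptor, was at 2.43 ± 0.259 FPKM in the ACT + IL-2 tumors and 2.49 ± 0.0627 FPKM in ACT + NKTR-214 (log2 fold change 0.03, 95% interval -0.27 to 0.32, adjusted p = 0.912, limma), while its ligand gene *Tnfsf10* rose. Named after their values were seen, *Tnfrsf11b*, the gene of osteoprotegerin, a soluble receptor that also binds TRAIL, rose by 1.80 (adjusted p = 1.26e-06, limma), and the decoy receptor gene *Tnfrsf23* by 0.85 (adjusted p = 0.00306, limma), whereas the decoy receptor gene *Tnfrsf22* did not pass the test (0.14, adjusted p = 0.485, limma).

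Downstream of the receptors, 8 of 22 genes of receptor-proximal signalling were called higher (median 0.30), led by the adaptor *Traf1* at 1.83 (adjusted p = 1.29e-05, limma), against 20.7% of all tested genes. Without ACT + NKTR-214 replicate 1 the count was 5 of 22, near the share of all tested genes called higher in that fit (2588 of 14145). Of 14 NF-κB kinases and subunits 10 were called higher (median 0.71), led by the atypical inhibitor *Nfkbid* at 1.6 (adjusted p = 2.8e-05, limma), and *Nfkb2*, the subunit of the non-canonical arm, rose by 0.72 (adjusted p = 0.00294, limma). The genes of TNF release and mRNA control rose in 4 of 7 cases (median 0.63): *Zfp36l2*, the largest at 1.44 (adjusted p = 4.91e-05, limma), and, named after their values were seen, *Zfp36*, *Rhbdf2* and *Timp3*. *Zfp36* and *Zfp36l2* encode proteins that bind AU-rich elements of mRNAs and promote decay, *Rhbdf2* supports the TNF-releasing protease ADAM17 and *Timp3* inhibits that protease.

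The death receptor execution list had the lowest median of the 7 lists, 0.24, with 3 of 13 genes called higher, a share near the 20.7% of all tested genes. *Ripk3*, a kinase of necroptosis, rose by 1.5 (adjusted p = 0.000217, limma), and the low *Faim2*, named after its values were seen, by 0.24 (adjusted p = 0.0331, limma). *Casp8*, the initiator caspase of the death receptors, was at 21.5 ± 3.54 and 23.5 ± 1.33 FPKM (log2 fold change 0.13, 95% interval -0.19 to 0.45, adjusted p = 0.569, limma). With 75th percentile scaling 5 genes of this list were called higher and 1, the adaptor *Fadd*, lower.

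Of 20 TNF and NF-κB target genes 19 were tested and 14 were called higher (median 0.76), led by the adhesion molecule gene *Selp* (P-selectin) at 1.65 (adjusted p = 2.8e-05, limma), beside 20.7% of all tested genes. Without ACT + IL-2 replicate 2, 8 of these target genes were called higher, when 2005 of 14227 tested genes were. The lymphotoxin-β receptor targets of lymphoid tissue were low or listed at 0, and a listed 0 does not show that a transcript was absent. *Ccl21a* and *Chst4* were listed at 0 in every tumor, and only 2 of the 6 genes could be tested. Of these, *Cxcl13*, a B cell attracting chemokine named after its values were seen, stood at 0.144, 0.113 and 0.0411 FPKM in the ACT + IL-2 tumors and at 1.6, 1.69 and 0.724 FPKM in ACT + NKTR-214, and rose by 1.06 (adjusted p = 4.17e-05, limma). *Madcam1*, the other tested gene, also named after its values were seen, was at 0.0827 ± 0.0134 and 0.202 ± 0.0741 FPKM (SD, n = 3 each) and did not pass the test. Lymph node stroma markers summed to 0.152 to 0.198 FPKM in the ACT + IL-2 tumors and 0.166 to 0.436 FPKM in ACT + NKTR-214.

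**Figure D5:**
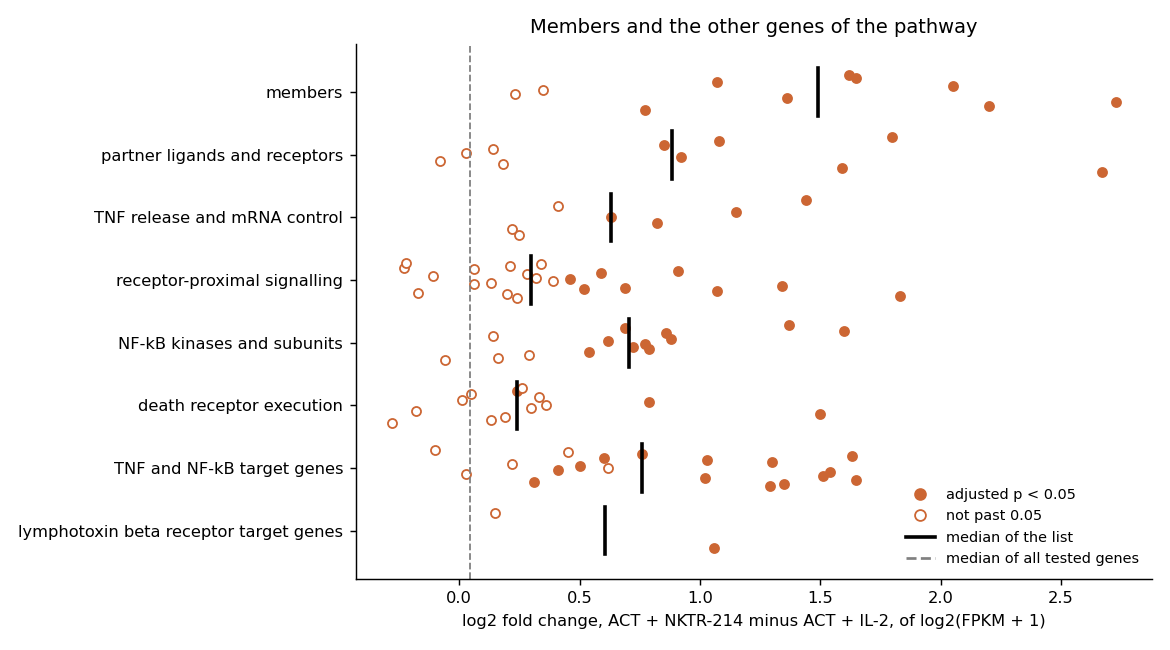
Log2 fold change (x axis, ACT + NKTR-214 minus ACT + IL-2, of log2(FPKM + 1)) of each tested gene of the 10 members and of the 7 pathway lists, filled where the adjusted p was under 0.05, with the median of each list as a bar and that of all tested genes, 0.045, as a dashed line. Filled points lie to the right in every list, and the members have the highest median, 1.49.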

How the data were processed

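RNA was extracted from whole tumors with a column kit and sequenced. The authors mapped the reads to GRCm38 with HISAT2 2.0.4, counted them per gene with HTSeq, per the submitters' processing notes, and deposited FPKM values, 1 column per tumor. All 6 columns were used (0 left unused). FPKM divides by exon length and library total, so that a few abundant genes can shift all others. Depth was estimated from the steps between low FPKM values, with whole reads called within 0.06 reads, and GENCODE vM21 exon lengths; this estimate rests on 201 of 1158 genes that agree within 1%, and read intervals cover counting error only.

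Genes whose FPKM averaged 0.1 or more over the 6 tumors were tested as log2(FPKM + 1) with limma 3.58.1 in R 4.3.3 (lmFit, eBayes with an intensity trend, two-sided, no block), adjusted by Benjamini-Hochberg, with calls at an adjusted p under 0.05. The fit was tested on simulated data. Levels relative to reference genes used an exact permutation test over the 6 tumors in scipy 1.17.1. Replicate numbers come from the sample titles. The limma p-values rest on the spread between these tumors after moderation over all tested genes, not on that spread alone.

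The members, lists and alternatives were chosen with earlier results of these data known. Named genes are the 10 members, in each pathway list and direction the called gene with the largest log2 fold change and a mean FPKM of at least 1, *Fasl*, *Tnfrsf10b*, *Tnfsf14*, *Nfkb2* and *Casp8*, and the reference genes. Other genes were named after their values were seen. Values of some genes of the lists are not reported here. Alternatives were other offsets, minimum levels, scalings, variance models, a replicate block and leaving out each tumor.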

Additional observations from a re-analysis of the deposited data

How the results depend on the processing

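The 10 members kept a positive log2 fold change under all 14 alternatives, and 8 were called higher under 11 of them. Without moderation of the variance 1 member (*Lta*) and 1 pathway gene were called higher, where limma with moderation called 8 and 46; this setting left 101 genes higher and 27 lower in all, and the adjusted p of the 7 members that lost the call ran from 0.0618 (*Tnfaip3*) to 0.132 (*Tnf*). Leaving out single tumors gave 7 to 9 members called higher (7 without ACT + IL-2 replicate 2, where *Tnf* was lost, and 9 without ACT + IL-2 replicate 1, where *Tnfrsf1a* was gained) and 32 to 50 pathway genes. Over all genes the median change shifted by -0.078 on the log2 scale when libraries were scaled to a common 75th percentile and by -0.143 after quantile normalization, and the members ranged from 0.14 (*Ltbr*) to 2.54 (*Ltb*) under the latter. Calls over all genes numbered 2940 higher and 1173 lower, against 2005 and 1996 without ACT + IL-2 replicate 2. Pathway genes called lower numbered 0, but 4 with 75th percentile scaling (*Fadd*, *Map3k7*, *Tab3* and *Traf3*) and 6 with quantile normalization (these and *Spata2* and *Tnfrsf25*). *Tnfrsf1b* relative to *Ptprc* in place of the macrophage genes turned from 0.66 to -0.27, and the cause was not tested. Counting error bears on *Tnf*, *Fas* and *Ltbr*, whose read intervals meet between the groups although their values do not overlap. *Lta* has the fewest reads, 7 to 12 in ACT + IL-2 tumors.

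With the replicate number as a block, 8 members and 48 pathway genes were called higher (3090 genes higher and 1227 lower in all). The deviations of same-numbered tumors correlated at -0.206, -0.0667 and 0.396 for replicates 1, 2 and 3, which is over 0.1 for replicate 3 alone, so the numbers were not taken as pairs.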
